A study of Homo sapiens with 22 samples.

Results

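The genes described are 35 axon guidance genes of the ephrin, netrin and Slit families, chosen by name and not by any value, out of the 63677 genes listed in each deposited table. They comprise 9 EphA receptors, 5 EphB receptors, 5 ephrin-A ligands, 3 ephrin-B ligands, 2 netrins, 5 netrin receptors, 3 Slits and 3 Robo receptors, and all 35 symbols matched exactly 1 Ensembl identifier. They were read in RNA sequencing of human neuroblastoma cell lines, in a study of CASC15, a long non-coding RNA gene at the 6p22.3 neuroblastoma susceptibility locus, and of the transcription factor gene SOX9. Levels are RPKM, reads scaled by gene length and by the library's assigned reads, so they can be set side by side between genes.

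The SH-SY5Y line carried stable lentiviral shRNAs selected with puromycin. The shRNAs were directed against the CASC15-003 transcript (called sh003 here) or the CASC15-004 transcript (sh004), with an sh1 and an sh2 construct for each, or were a scrambled control with no mammalian target. Day 7 libraries came from cells labelled as treated with retinoic acid (10 mM as the labels give it) for 7 days, in 1% serum per the treatment notes and 10% per the growth notes. Day 0 libraries came from untreated cells in 10% serum, and spheres were grown in sphere-forming medium. At day 7 there were 3 sh003, 2 sh004 and 2 control libraries, and at day 0 there were 3, 2 and 3. Spheres gave 2 sh003, 2 sh004 and 1 control library. KELLY, another neuroblastoma line, gave 1 library with a SOX9 siRNA and 1 with a control siRNA. Nothing in the labels says that libraries of a group came from separate cultures, and each knockdown group combines constructs and batches. P-values here therefore reflect just the spread among the libraries at hand, which may be technical. Monolayer values are always given in 1 order: sh003 day 7 as sh1 batch 2, sh2 batch 1 and sh2 batch 2, sh003 day 0 as sh1 batch 3, sh2 batch 1 and sh2 batch 2, sh004 as sh1 and sh2 (both of batch 2), and control by batch number.

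Ephrins are membrane-bound ligands, and their Eph receptors are tyrosine kinases on neighbouring cells, so that contact signals run into both cells, mostly to repel growth cones and to keep cell populations apart. Netrins are secreted laminin-related cues that attract axons through DCC and repel them through UNC5 receptors, and the UNC5 receptors and DCC are also studied as dependence receptors, which promote cell death when no ligand is bound. Slits are secreted repellents that act through Robo receptors. Neuroblastoma arises from sympathoadrenal cells of the neural crest, whose migration and axon growth rely on such cues, and retinoic acid drives SH-SY5Y cells to extend neurites.

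The shRNA sequences are shown because they define the knockdown groups. Each has 21 bases, and each matched, without mismatch and in the sense direction, 2 of 206694 annotated transcripts, both of CASC15 on chromosome 6 and none of a guidance gene. The sh003 pair matched CASC15-205 and CASC15-206, and the sh004 pair matched CASC15-202 and CASC15-204.
sh003 sh1: ctagcactgacctccttcatt
sh003 sh2: ctttccatcagccaacaatat
sh004 sh1: caggctgttcccagggattta
sh004 sh2: taggaataccttacatccaat

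The targeted gene was read first. Gene-level CASC15, which sums all its transcripts and so cannot show one of them, stood at 2.08, 3.27 and 3.38 RPKM in sh003 and 1.31 and 1.48 RPKM in sh004 libraries at day 7, against 3.33 and 3.26 RPKM in control libraries. At day 0 it stood at 2.65, 1.95 and 1.57 RPKM in sh003 and 1.16 and 1.14 RPKM in sh004 libraries, against 1.52, 1.31 and 2.38 RPKM in control libraries. The sh004 libraries were below the control libraries on both days, while sh003 and control libraries overlapped. SOX9 stood at 0.974 RPKM with the SOX9 siRNA and 5.61 RPKM with the control siRNA in KELLY cells.

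Libraries held 11884895 to 62075189 assigned reads. PHOX2A, a transcription factor of the sympathetic lineage, reached 113 RPKM or more in all 22 libraries. Of 9 sympathoadrenal markers read, 8 or 9 reached 1 RPKM in each group. TH, one of the 9, did not exceed 1.57 RPKM in monolayers or 3.34 RPKM in spheres, and DBH ranged from 16.5 to 565 RPKM in monolayers. Endothelial markers summed to at most 0.32 RPKM in SH-SY5Y libraries, with PECAM1 at 0. In the sh003 group the treatment labels of 2 libraries contradict their titles, namely sh1 batch 2, titled day 7, and sh2 batch 1, titled day 0. CYP26A1, a retinoic acid-degrading enzyme that retinoic acid induces, stood at 687 RPKM in that day 7 library and 0.199 RPKM in that day 0 library, and the titles were followed. The sh004 sh2 library at day 7 stood apart, with CYP26A1 at 9.001 RPKM against 301 RPKM in its sh1 partner and CHGA, a secretory granule protein of neuroendocrine cells, at 1080 RPKM against 52.7 RPKM. Batch 3 is present at day 0 only, in 1 sh003 and 1 control library. The guidance results were therefore also computed without these libraries and with batch as a block, and the number of alternatives that ended a call, or the main ones among them, is given with the call.

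Receptors of the EphA class were mostly silent in SH-SY5Y cells, whereas the ephrins, UNC5B, UNC5C and SLIT3 were well expressed. Of the 35 genes, 22 reached 1 RPKM in at least 2 of the 15 monolayer libraries and were tested there, and 20 did so in the spheres. By role, 1 of 9 EphA receptors, 3 of 5 EphB receptors, 5 of 5 ephrin-A ligands, 3 of 3 ephrin-B ligands, 1 of 2 netrins, 4 of 5 netrin receptors, 2 of 3 Slits and 3 of 3 Robo receptors passed in monolayers. The 13 others, among them NTN1, the founding netrin, and UNC5D, never exceeded 1.17 RPKM there. A mean of 10 RPKM or more over the monolayer libraries was reached by 11 genes. UNC5B led with a mean of 83.7 RPKM (22.3 to 154), followed by its paralogue UNC5C at 48.5 RPKM (23.2 to 79.0). EFNB2 averaged 32.3, EPHA2 26.7, EFNB3 25.5, EPHB4 23.2, SLIT3 22.8, EFNA4 19.0, ROBO1 18.9, EFNA2 12.9 and EFNA1 11.9 RPKM. Every pair of neighbours in this order overlapped over the libraries.

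**Figure D1:**
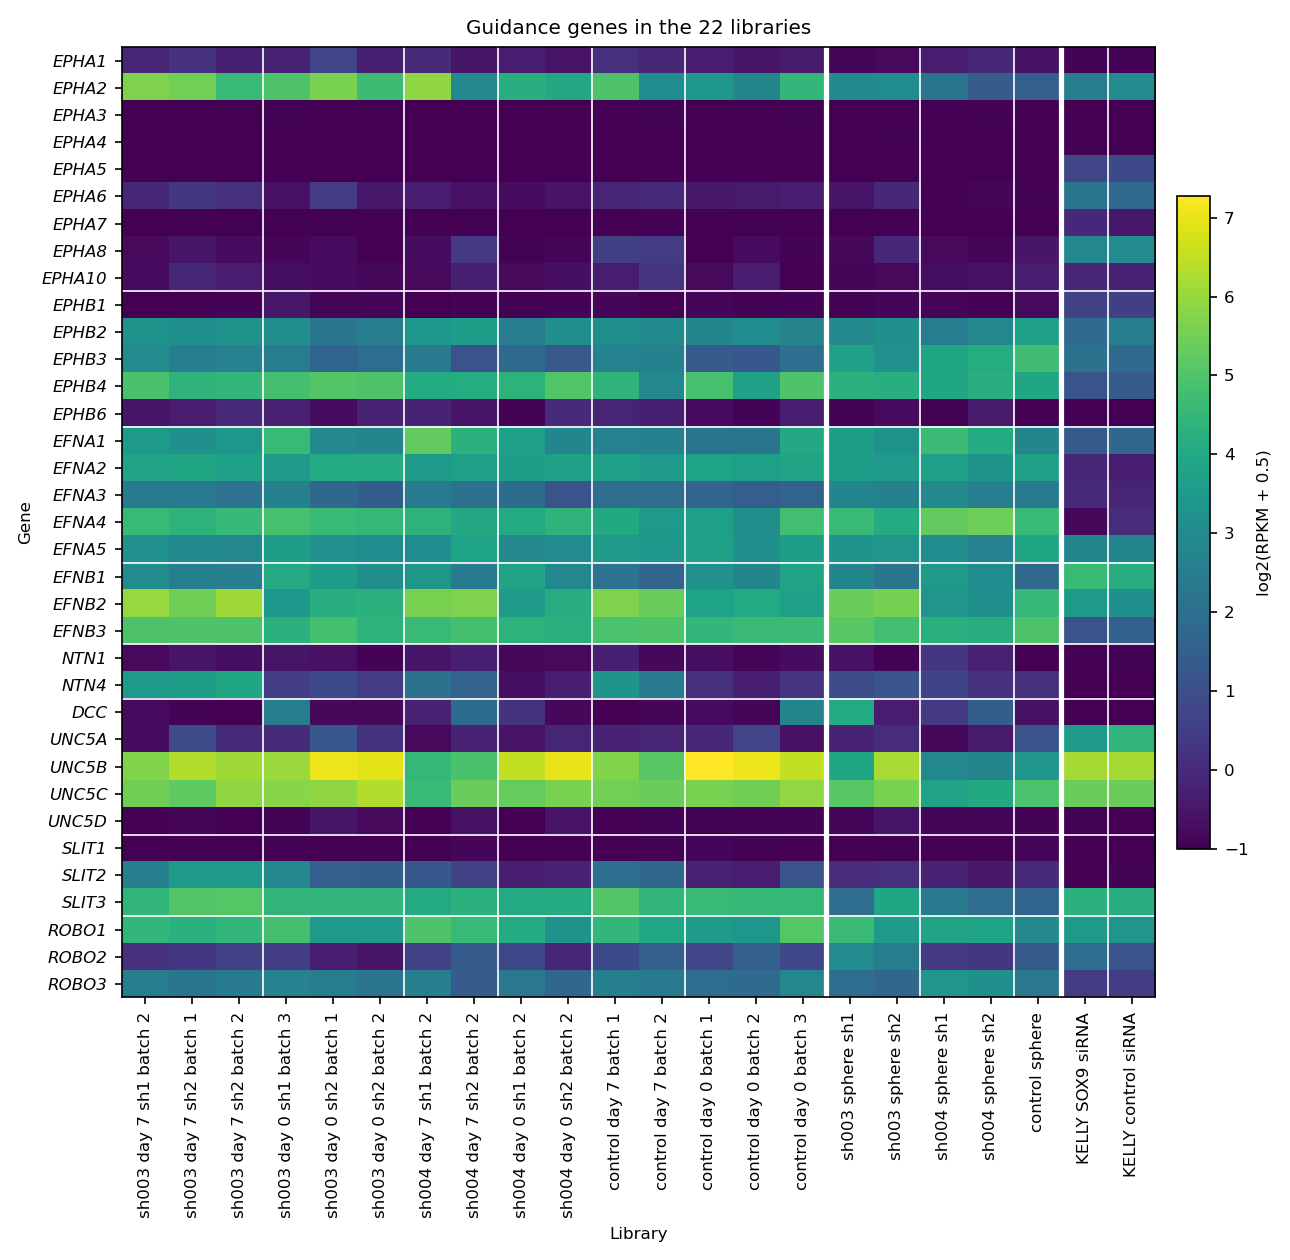
Level of each of the 35 guidance genes (rows, by role) in each of the 22 libraries (columns, knockdown before control and day 7 before day 0), as log2(RPKM + 0.5) in colour, with thin white lines between groups and roles and thick lines between monolayers, spheres and KELLY. Among the EphA rows EPHA2 alone is bright in SH-SY5Y cells, UNC5B is the brightest row at day 0, and NTN4 and SLIT2 brighten at day 7.

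The first comparison asked which guidance genes differ between day 7 and day 0, within each shRNA background. The days differ in retinoic acid, in time in culture and, per the treatment notes, in serum. No day 7 group was without retinoic acid, so these cannot be told apart. Genes were tested with limma on log2(RPKM + 0.5), with Benjamini-Hochberg adjustment over all 19461 genes tested, and the call required an adjusted p under 0.05. NTN4, a netrin of basement membranes, and EFNB2, a transmembrane ephrin, rose in all 3 backgrounds. These were the only calls among the 22 genes tested (2 of 22, or 9.09%), where 2.35% of all genes were called in sh003, 0.380% in sh004 and 0.956% in control cells. The median log2 change over the 22 genes was 0.06 in sh003, 0.34 in sh004 and 0.18 in control cells, beside 0.05, 0.02 and 0.15 over all genes tested. With batch as a block, which the titles number, the counts were 5 of 22 in sh003, 4 in sh004 and 5 in control cells, where 14.3%, 2.11% and 7.68% of all genes were called. UNC5B, a repulsive netrin receptor, then fell in all 3 backgrounds, and SLIT2 rose in sh003 and control cells. Sums over 9 sympathoadrenal markers overlapped between the days in each background. Sums over 10 markers of mesenchymal-type neuroblastoma or Schwann cells were lower at day 7 in sh003 and sh004 cells and overlapped in control cells. The sums over these 10 were 242.2 to 283.1 RPKM at day 7 in sh003, against 289.0 to 464.0 RPKM at day 0. They were 148.4 to 216.2 RPKM in sh004, against 227.0 to 325.1 RPKM, and 109.9 to 218.9 RPKM in control cells, against 183.5 to 305.2 RPKM. Per group, 6 to 8 of the 10 reached 1 RPKM, PRRX1 did not exceed 0.0812 RPKM in any monolayer library, and the part of these markers in the guidance changes was not tested. Fewer cells of a type and less RNA per cell cannot be told apart in such bulk samples.

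EFNB2 (ENSG00000125266, chromosome 13) signals through EphB receptors and EphA4, and is best known from arteries and from the guidance of neural crest cells. EFNB2 stood at 63.8, 43.9 and 67.9 RPKM in sh003 libraries at day 7, against 10.1, 18.2 and 19.0 RPKM at day 0. In sh004 libraries it was 48.6 and 50.4 RPKM at day 7, against 11.5 and 17.5 RPKM at day 0. Control libraries held 50.1 and 40.7 RPKM at day 7, against 13.4, 16.0 and 12.9 RPKM at day 0. Every day 7 library lay above every day 0 library, by at least 2-fold between the lowest and the highest. The log2 change was 1.89 ± 0.25 in sh003 (limma adjusted p = 0.00387), 1.77 ± 0.31 in sh004 (limma adjusted p = 0.0443) and 1.65 ± 0.28 in control cells (limma adjusted p = 0.0242), where ± is the standard error. The sh003 call held in all 22 alternatives. The control call was lost without any 1 of its 5 libraries (limma adjusted p from 0.0576 to 0.214), under median-ratio scaling (0.0565) and without both libraries with contradicting labels (0.0516), and the sh004 call in 15 of 22 alternatives, among them without any 1 of its own 4 libraries (from 0.107 to 0.422) and without both with contradicting labels (0.0885), at log2 changes of 1.48 to 2.06. With the batch block the changes were 1.69 ± 0.22, 1.77 ± 0.25 and 1.48 ± 0.24 (limma adjusted p = 0.00239, 0.00765 and 0.00986 in the same order). The blocked control call was lost without either batch 1 control library (limma adjusted p = 0.0736 without that of day 0 and 0.105 without that of day 7), and the blocked sh004 call without sh004 sh1 at day 0 (0.0524).

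The other ephrin-B genes did not pass. EFNB3, whose product also serves as an axon-repelling cue at the spinal midline in mice, stood at 30.8, 31.7 and 30.5 RPKM in sh003 libraries at day 7, against 19.2, 28.3 and 19.8 RPKM at day 0. Control libraries held 30.4 and 31.2 RPKM at day 7, against 21.9, 24.5 and 24.7 RPKM at day 0, and sh004 libraries held 23.3 and 28.1 RPKM against 19.7 and 18.6 RPKM. The day 7 values were above those of day 0 in each background, at adjusted p of 0.0699, 0.282 and 0.22 by limma with the block in sh003, sh004 and control cells. For EFNB1 the days overlapped in sh004 cells. In control cells EFNB1 ran the other way in values, at 3.91 and 2.77 RPKM at day 7, against 8.61, 6.41 and 13.7 RPKM at day 0 (limma adjusted p = 0.0883 with the block). EFNB2 thus made up 54.2% to 65.5% of the summed ephrin-B RPKM in the 7 day 7 libraries and 22.2% to 40.8% in the 8 day 0 libraries.

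Among the Eph receptors, EPHB3 (ENSG00000182580, chromosome 3), which takes part in commissural axon guidance in mice, rose in control cells under the batch block only. EPHB3 was at 5.89 and 5.69 RPKM in control libraries at day 7, against 2.10, 1.93 and 3.55 RPKM at day 0. It was 1 of 8 of the 22 guidance genes without overlap there, and the share over all genes was not computed. Its log2 change was 1.32 ± 0.34 (limma adjusted p = 0.0433 with the block, 0.219 without). The call was lost in 14 of 17 alternatives to the blocked fit, including the omission of any 1 control library (limma adjusted p from 0.0702 to 0.219) and of both libraries with contradicting labels (0.0798). The sh003 libraries held 7.46, 5.32 and 5.83 RPKM at day 7, against 5.20, 2.68 and 3.47 RPKM at day 0, and the sh004 libraries held 4.80 and 1.69 RPKM against 3.13 and 1.97 RPKM. EPHB4, the venous partner receptor of EFNB2, was at 16.5 and 16.8 RPKM in sh004 libraries at day 7, against 20.0 and 31.8 RPKM at day 0, and at 20.4 and 6.79 RPKM in control libraries at day 7, against 28.5, 12.7 and 31.4 RPKM. In sh003 libraries EPHB4 was at 29.1, 20.5 and 21.6 RPKM, against 27.9, 32.6 and 31.7 RPKM, and no EPHB4 comparison was called. The ratio of EFNB2 to EPHB4 was 2.15 to 5.99 in the 7 day 7 libraries and 0.36 to 1.26 in the 8 day 0 libraries, so the ligand exceeded the receptor in every day 7 library and in 1 day 0 library, the control library of batch 2.

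EPHA2 (ENSG00000142627, chromosome 1), a receptor linked to motility in many tumours, varied widely within groups. It stood at 50.8, 45.2 and 23.6 RPKM in sh003 libraries at day 7, against 31.4, 47.9 and 24.9 RPKM at day 0. The sh004 libraries held 59.2 and 6.81 RPKM at day 7, against 18.3 and 15.6 RPKM at day 0, and the control libraries held 30.995 and 7.67 RPKM, against 10.1, 6.34 and 21.8 RPKM. The sh004 partners at day 7 lay on both sides of every other monolayer library but one, the control library of batch 2 at day 0, and no EPHA2 comparison in monolayers was called. EPHB2, a receptor for ephrin-B, ranged from 4.19 to 12.02 RPKM over the monolayer libraries and was not called.

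Of the ephrin-A genes, EFNA1 alone was called. EFNA1 (ENSG00000169242, chromosome 1), a ligand of EPHA2, rose in sh004 cells under the batch block. It stood at 38.9 and 19.2 RPKM in sh004 libraries at day 7, against 12.3 and 6.39 RPKM at day 0, and both day 7 values lay above those of the 5 other day 7 libraries. Its log2 change was 1.57 ± 0.33 (limma adjusted p = 0.0405 with the block, 0.589 without), and the blocked call was lost in 14 of 17 alternatives, among them without sh004 sh1 at day 7 (1.07, limma adjusted p = 0.121), without sh004 sh2 at day 0 (1.12, limma adjusted p = 0.26) and without both libraries with contradicting labels (limma adjusted p = 0.0996). Without sh004 sh2 at day 7, the library that stood apart, the change was 2.07 (limma adjusted p = 0.00592). In sh003 libraries EFNA1 was 10.9, 8.49 and 9.75 RPKM at day 7, against 23.4, 6.96 and 6.24 RPKM at day 0, and in control libraries 5.84 and 5.71 RPKM, against 4.08, 4.18 and 15.5 RPKM. Both batch 3 libraries were the highest of their day 0 group. EFNA2 was at 13.9, 14.3 and 12.6 RPKM in sh003 libraries at day 7, against 10.5, 16.0 and 16.5 RPKM at day 0, at 10.8 and 12.5 RPKM in sh004 libraries, against 11.6 and 12.8 RPKM, and at 12.9 and 10.3 RPKM in control libraries, against 13.5, 12.2 and 13.8 RPKM. EFNA3 ranged from 1.68 to 5.76 RPKM and EFNA5 from 6.80 to 13.4 RPKM over the monolayer libraries. EFNA4 stood at 23.4, 19.9 and 22.7 RPKM in sh003 libraries at day 7, against 28.4, 23.5 and 22.2 RPKM at day 0, at 19.7 and 15.5 RPKM in sh004 libraries, against 16.0 and 20.4 RPKM, and at 15.8 and 10.3 RPKM in control libraries, against 12.1, 7.96 and 26.9 RPKM. Reads of EFNA3 and EFNA4 cannot be separated with certainty, since a readthrough gene, AL691442.1, covers both.

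NTN4 (ENSG00000074527, chromosome 12) encodes netrin-4, which binds laminins and occurs in basement membranes of vessels and nerves. NTN4 stood at 10.6, 11.8 and 14.2 RPKM in sh003 libraries at day 7, against 0.917, 1.31 and 0.863 RPKM at day 0. In sh004 libraries it was 3.75 and 2.55 RPKM at day 7, against 0.129 and 0.318 RPKM at day 0, which rest on 15 and 48 reads. Control libraries held 9.26 and 4.75 RPKM at day 7, against 0.606, 0.309 and 0.713 RPKM at day 0. The lowest day 7 library lay above the highest day 0 library. The log2 change was 3.06 ± 0.27 in sh003 (limma adjusted p = 0.000275), 2.33 ± 0.33 in sh004 (limma adjusted p = 0.0148) and 2.80 ± 0.30 in control cells (limma adjusted p = 0.00152), on a scale that understates changes of genes this low at day 0. The ratio of group means was 11.9-fold in sh003, 14.1-fold in sh004 and 12.9-fold in control cells. NTN4 held in all 22 alternatives in sh003 and control cells. In sh004 it was lost without sh1 at day 0 (2.14, limma adjusted p = 0.167), without sh2 at day 0 (2.52, limma adjusted p = 0.0976) or without sh1 at day 7 (2.09, limma adjusted p = 0.102), and it held without sh2 at day 7 (2.57, limma adjusted p = 0.0278). With the batch block it held in all 17 alternatives in each background.

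Of the netrin receptors, UNC5B (ENSG00000107731, chromosome 10) fell and UNC5C did not pass. UNC5B was at 51.2, 79.9 and 67.7 RPKM in sh003 libraries at day 7, against 64.9, 134 and 122 RPKM at day 0. In sh004 libraries it was 22.3 and 29.5 RPKM at day 7, against 90.2 and 128 RPKM at day 0. Control libraries held 52.2 and 35.1 RPKM at day 7, against 154, 132 and 90.3 RPKM at day 0. The days did not overlap in sh004 and control cells. This held for 11 and 8 of the 22 guidance genes, and for an uncounted share of all genes, so it does not single out UNC5B. In sh003 cells the days overlapped for UNC5B through the batch 3 library of day 0. With the batch block UNC5B fell by 0.86 ± 0.19 (limma adjusted p = 0.0185) in sh003, by 2.05 ± 0.22 (limma adjusted p = 0.00183) in sh004 and by 1.78 ± 0.21 (limma adjusted p = 0.00228) in control cells on the log2 scale, while without the block the adjusted p were 0.312, 0.0585 and 0.0819. The blocked calls in sh004 and control cells held in all 17 alternatives. The one in sh003 was lost without sh2 batch 1 at day 0 (limma adjusted p = 0.0635), without sh2 batch 1 at day 7 (0.0642), without sh2 batch 2 at day 0 (0.149) and without both libraries whose labels contradict their titles (0.129). UNC5B overlaps the antisense gene UNC5B-AS1.

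UNC5C (ENSG00000182168, chromosome 4), which acts in repulsive netrin signalling as UNC5B does, stood at 44.5, 37.2 and 59.2 RPKM in sh003 libraries at day 7, against 55.5, 59.9 and 79.0 RPKM at day 0. In sh004 libraries it was 23.2 and 41.7 RPKM, against 39.1 and 47.8 RPKM, and in control libraries 44.8 and 41.9 RPKM, against 48.6, 44.5 and 60.6 RPKM. The ratio of UNC5B to UNC5C was 0.71 to 2.15 in the 7 day 7 libraries and 1.17 to 3.17 in the 8 day 0 libraries. In control cells alone it was 1.17 and 0.84 at day 7, against 3.17, 2.97 and 1.49 at day 0. DCC, the attractive netrin receptor (chromosome 18), was highest in batch 3, at 5.19 RPKM in the sh003 and 6.10 RPKM in the control library of batch 3, and at 0.668 RPKM or less in the other day 0 libraries. At day 7 DCC was highest in sh004 sh2, at 3.26 RPKM, and at most 0.372 RPKM elsewhere. No DCC comparison was called, and UNC5A stayed at 0.0786 to 1.88 RPKM.

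Of the Slits, SLIT2 (ENSG00000145147, chromosome 4), the best studied ligand of ROBO1, rose with the batch block, and SLIT3, more abundant throughout, did not pass. SLIT2 was at 5.55, 10.9 and 10.6 RPKM in sh003 libraries at day 7, against 6.66, 2.37 and 2.22 RPKM at day 0. In sh004 libraries it was 1.92 and 1.06 RPKM at day 7, against 0.307 and 0.359 RPKM at day 0. Control libraries held 3.56 and 2.91 RPKM at day 7, against 0.338, 0.282 and 1.74 RPKM at day 0. Both batch 3 libraries were the highest of their day 0 group, and the one of sh003 exceeded the sh1 library of day 7. With the block the log2 change was 1.77 ± 0.25 in sh003 (limma adjusted p = 0.0034), 1.22 ± 0.29 in sh004 (limma adjusted p = 0.0656) and 2.18 ± 0.28 in control cells (limma adjusted p = 0.0032), and the calls in sh003 and control cells held in all 17 alternatives. Without the block none was called (limma adjusted p = 0.175, 0.637 and 0.172). SLIT3 stood at 21.4, 32.7 and 33.3 RPKM in sh003 libraries at day 7, against 21.0, 20.6 and 21.2 RPKM at day 0, at 16.3 and 18.8 RPKM in sh004 libraries, against 16.3 and 16.4 RPKM, and at 33.0 and 21.8 RPKM in control libraries, against 23.4, 23.1 and 22.2 RPKM. SLIT2 supplied 5.31% to 25.1% of the summed Slit RPKM in the 7 day 7 libraries and 1.21% to 24.1% in the 8 day 0 libraries.

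ROBO1 (ENSG00000169855, chromosome 3), a receptor that binds Slits, rose in sh003 cells with the block (log2 change 1.04 ± 0.24, limma adjusted p = 0.0217, against 0.664 without the block). ROBO1 was at 22.04, 19.1 and 21.8 RPKM in sh003 libraries at day 7, against 27.9, 10.4 and 10.3 RPKM at day 0. In sh004 libraries it was 31.8 and 23.4 RPKM at day 7, against 16.7 and 8.74 RPKM, and in control libraries 21.7 and 14.8 RPKM, against 11.2, 9.84 and 33.5 RPKM. Again the batch 3 libraries were the highest at day 0. The call was lost in 6 of 17 alternatives, on leaving out sh1 at day 7 (limma adjusted p = 0.0517), sh2 batch 1 at day 0 (0.0825) or day 7 (0.0502), sh2 batch 2 at day 0 (0.101) or day 7 (0.0694), or both libraries with contradicting labels (0.162). ROBO2 was at 0.612, 0.736 and 1.01 RPKM in sh003 libraries at day 7, against 0.915, 0.302 and 0.205 RPKM at day 0, at 1.03 and 2.14 RPKM in sh004 libraries, against 1.22 and 0.429 RPKM, and at 1.30 and 2.38 RPKM in control libraries, against 1.16, 2.37 and 1.21 RPKM. ROBO3 was at 5.18, 4.18 and 4.64 RPKM in sh003 libraries at day 7, against 5.81, 5.19 and 4.00 RPKM at day 0, at 5.26 and 2.15 RPKM in sh004 libraries, against 4.32 and 2.81 RPKM, and at 5.45 and 4.62 RPKM in control libraries, against 3.43, 3.20 and 6.57 RPKM. Neither was called in monolayers.

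**Figure D2:**
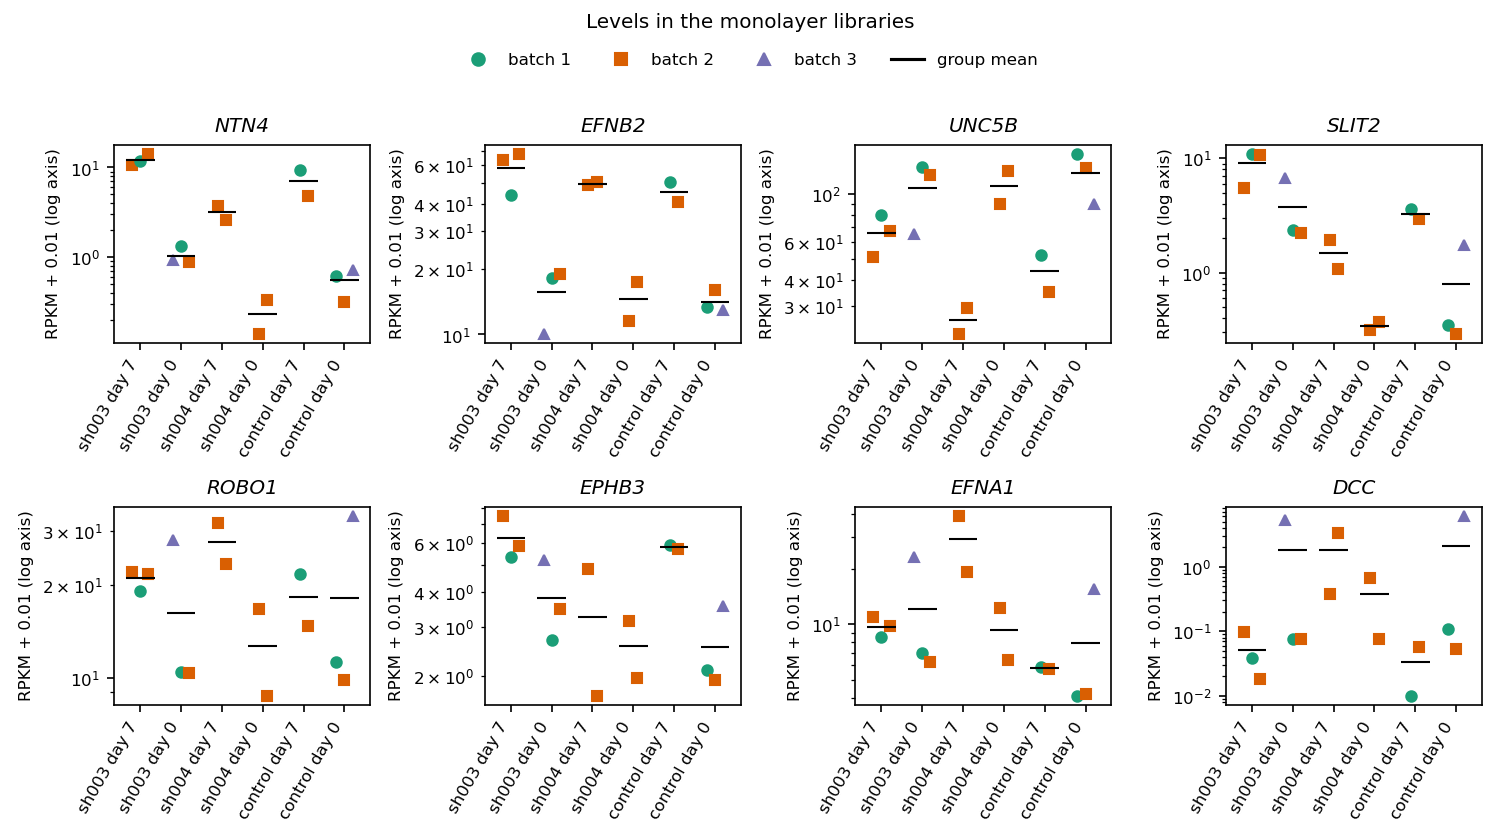
RPKM + 0.01 on a log axis for 8 guidance genes in the 15 monolayer libraries, 1 point per library with colour and shape giving the batch, and a black line at each group mean. NTN4 and EFNB2 separate day 7 from day 0 in each background, UNC5B is lower at day 7 in sh004 and control cells without overlap, and for SLIT2, ROBO1, EFNA1 and DCC the batch 3 libraries (triangles) are the highest of their own day 0 group.

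Promoters of SLIT2, NTN4 and EFNB2, the genes called as higher at day 7 in more than 1 background, are shown because retinoic acid receptors bind pairs of short half-sites, of which AGGTCA was searched, then the variant GGGTCA, and last the variant AGTTCA. Promoter sequences, from 250 bases before to 50 bases after the annotated start, were taken from RefSeq (GRCh38.p14), where 30 of the 35 genes matched, with 41 promoters. EPHA10, EFNB3, NTN1, UNC5B and UNC5D had none there. Capitals mark a half-site found on either strand. The first is SLIT2 (chr4:20251655-20251954, plus strand), with GGGTCA starting 57 bases before the start, the next is an NTN4 promoter (chr12:95791106-95791405, minus strand), with AGGTCA read on the opposite strand 6 bases before the start (the other NTN4 promoter in the table has no match), and the last is EFNB2 (chr13:106535613-106535912, minus strand), with no match.
SLIT2: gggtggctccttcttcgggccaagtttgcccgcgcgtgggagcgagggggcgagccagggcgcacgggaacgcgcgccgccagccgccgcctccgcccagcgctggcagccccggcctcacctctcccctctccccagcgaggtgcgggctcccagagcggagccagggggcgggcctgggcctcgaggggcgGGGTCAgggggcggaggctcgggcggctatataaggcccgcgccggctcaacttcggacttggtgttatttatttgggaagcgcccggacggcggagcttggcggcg
NTN4: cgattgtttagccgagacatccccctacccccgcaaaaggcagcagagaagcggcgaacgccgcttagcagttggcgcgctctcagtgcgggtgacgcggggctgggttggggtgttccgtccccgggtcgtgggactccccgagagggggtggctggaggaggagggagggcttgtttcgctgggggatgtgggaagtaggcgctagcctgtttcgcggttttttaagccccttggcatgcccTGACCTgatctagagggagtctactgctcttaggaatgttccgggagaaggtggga
EFNB2: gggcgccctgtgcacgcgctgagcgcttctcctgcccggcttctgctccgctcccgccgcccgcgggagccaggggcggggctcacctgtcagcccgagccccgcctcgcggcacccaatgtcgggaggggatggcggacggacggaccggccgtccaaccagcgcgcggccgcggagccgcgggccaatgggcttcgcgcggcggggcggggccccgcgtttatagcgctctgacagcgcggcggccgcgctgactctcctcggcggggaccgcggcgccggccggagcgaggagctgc
A match describes these letters only. AGGTCA occurred in 2 of the 41 promoters and in 13.8% of 35116 RefSeq promoters of the same length, GGGTCA in 6 and 14.1%, AGTTCA in 6 and 10.4%, and any of the 3 in 13 and 33.2%. A direct repeat of AGGTCA with 5 bases between occurred in 0 of the 41, and in 2 of all 35116.

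The size of the day 7 response was compared between backgrounds by the interaction of day and shRNA. For sh003 against control, 0% of all genes and none of the 22 guidance genes were called by limma without or with the block. An unadjusted p under 0.05 was held by 0 and 1 guidance gene, beside 284 and 731 of all 19461 genes. For sh004 against control none of the 22 was called, where 0% of all genes were called without and 0.0103% with the block. An unadjusted p under 0.05 was held by 0 and 3 of the 22, beside 284 and 849 of all 19461 genes. UNC5B had a blocked log2 change in sh003 that was 0.92 ± 0.27 above that in control cells, a smaller fall that did not pass. Limma-voom on the recovered reads also called none of the 22 in either interaction. An effect called in one background and not in another is thus not shown to differ between them.

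**Figure D3:**
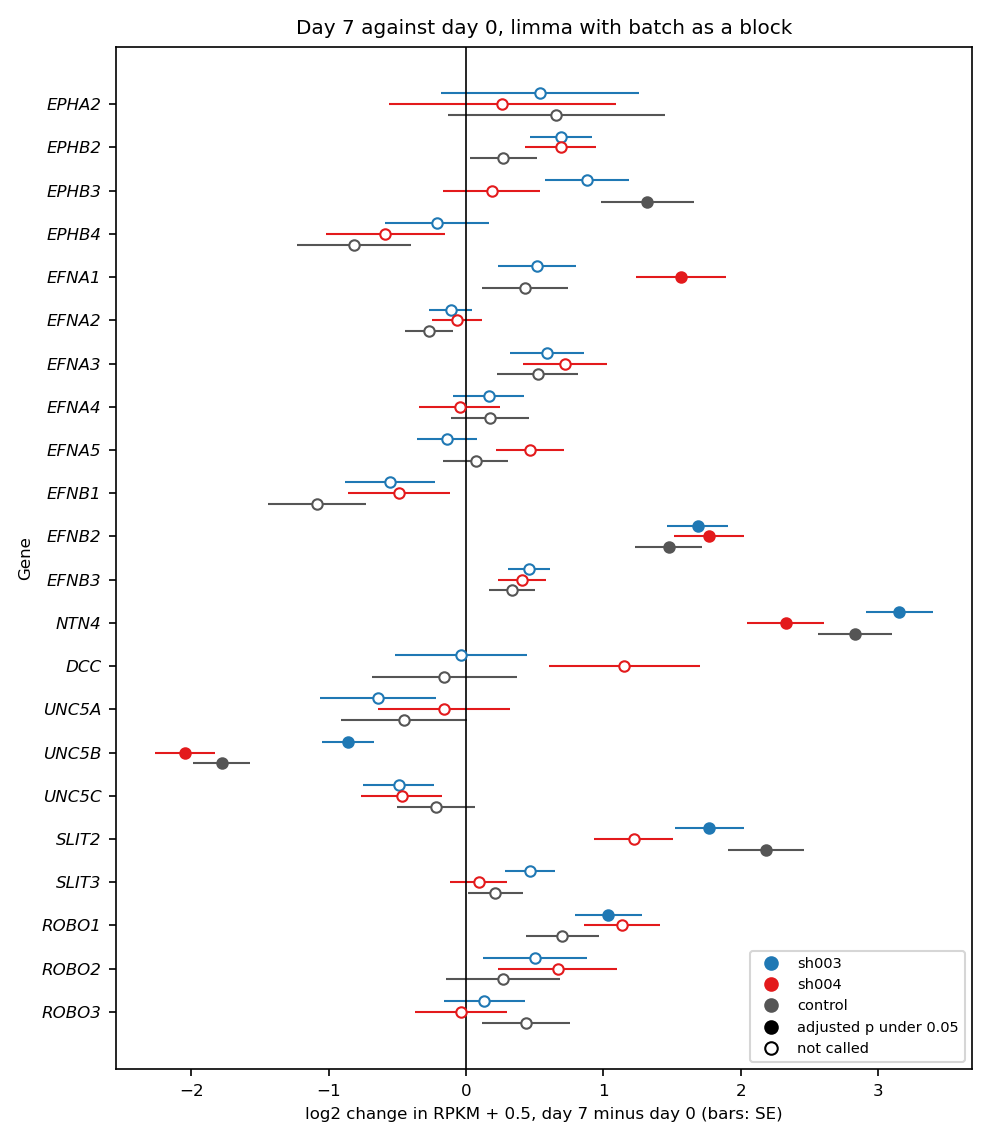
Log2 change in RPKM + 0.5 from day 0 to day 7 with its standard error, for the 22 tested guidance genes in sh003 (blue), sh004 (red) and control cells (grey), from limma with batch as a block. Filled points are called: NTN4, EFNB2 and UNC5B in all 3 backgrounds, SLIT2 in sh003 and control, ROBO1 in sh003, EFNA1 in sh004 and EPHB3 in control cells.

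Knockdown was compared with control on each day, to ask which guidance genes depend on the CASC15 transcripts. Without the block no guidance gene was called. The share of all genes called was 0.00514% for sh003 at day 0, and 0% for sh003 at day 7, for sh004 at day 0 and for sh004 at day 7. Of the 22 guidance genes, 3, 2, 1 and 3 had an unadjusted p under 0.05 in these comparisons, beside 1125, 1405, 378 and 1564 of all 19461 genes. Limma-voom called 0 guidance genes in each. With the block SLIT2 was called in sh003 at day 0 (1 of 22 genes, with 0.252% of all genes called) and EFNA1 in sh004 at day 7 (1 of 22, with 0.226% of all genes). None was called in sh003 at day 7 (0.00514% of all genes), nor in sh004 at day 0 (0%). There 7 and 2 of the 22 had an unadjusted p under 0.05, beside 2823 and 719 of all 19461 genes. The comparisons of sh003 and sh004 with control share the control libraries.

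SLIT2 was higher in sh003 than in control libraries of the same batch at day 0, at 6.66 against 1.74 RPKM in batch 3, 2.37 against 0.338 RPKM in batch 1 and 2.22 against 0.282 RPKM in batch 2. The groups did not overlap, which held for 5 of the 22 guidance genes and was not counted over all genes. The blocked log2 difference of SLIT2 was 1.75 ± 0.24 (limma adjusted p = 0.0263, against 0.476 without the block). The call was lost in 7 of 17 alternatives at differences of 1.68 to 1.80, among them without the batch 1 (limma adjusted p = 0.197) or batch 2 (0.127) control library of day 0, without sh003 sh2 of batch 1 (0.235) or batch 2 (0.115) at day 0, and without both libraries with contradicting labels (0.109). At day 7 SLIT2 was again higher in sh003, at 5.55, 10.9 and 10.6 RPKM against 3.56 and 2.91 RPKM in control libraries (blocked log2 difference 1.34 ± 0.27, limma adjusted p = 0.109), and not called. EFNA1 at day 7 stood at 38.9 and 19.2 RPKM in sh004 against 5.84 and 5.71 RPKM in control libraries. It was 1 of 14 of the 22 guidance genes without overlap there, so lack of overlap does not single it out, and the share over all genes was not computed. Its blocked log2 difference was 2.12 ± 0.34 (limma adjusted p = 0.0471, against 0.525 without the block). That call was lost in 12 of 17 alternatives (limma adjusted p up to 0.49, without the batch 2 control library of day 7, and 0.17 without both libraries with contradicting labels) and held without sh004 sh2 at day 7 (2.63, limma adjusted p = 0.0139).

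Set directly against each other, sh003 and sh004 cells differed at day 7 in a few guidance genes under the batch block. None was called at day 0, without or with the block (0.00514% of all genes in both), and none at day 7 without the block (0.0206%). An unadjusted p under 0.05 was held by 2, 2 and 6 of the 22 in these fits, beside 1409, 1256 and 2330 of all 19461 genes. Limma-voom called 0 on both days. With the block SLIT2, NTN4 and UNC5B were higher in sh003 at day 7 (3 of 22, or 13.6%, with 0.714% of all genes called). SLIT2 averaged 9.03 ± 3.02 RPKM in sh003 (SD, n = 3) and 1.49 ± 0.61 RPKM in sh004 (SD, n = 2), a log2 difference of 2.15 ± 0.27 (limma adjusted p = 0.0116). NTN4 averaged 12.2 ± 1.83 RPKM in sh003 and 3.15 ± 0.84 RPKM in sh004, a log2 difference of 1.68 ± 0.26 (limma adjusted p = 0.0287). UNC5B averaged 66.3 ± 14.4 RPKM in sh003 and 25.9 ± 5.08 RPKM in sh004, a log2 difference of 1.21 ± 0.21 (limma adjusted p = 0.036). Of 17 alternatives the SLIT2 call was lost in 2, the NTN4 call in 7 and the UNC5B call in 10, among them NTN4 without both libraries with contradicting labels (limma adjusted p = 0.0626) and UNC5B under median-ratio scaling (0.0566). All 3 calls were lost without sh004 sh2 at day 7 (limma adjusted p = 0.0519 for SLIT2, 0.137 for NTN4 and 0.0596 for UNC5B) and without sh003 sh2 batch 2 at day 7 (0.0624, 0.149 and 0.181). The values of the groups did not overlap for any of them, which held for 14 of the 22 guidance genes in this comparison. With so few libraries this does not single them out, and the share over all genes was not computed. Without sh004 sh1 at day 7 the number called was 7 of 22, where 2268 of 19461 genes were called.

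In spheres the cells are grown unattached in sphere-forming medium. Against the single control sphere, none of the 20 guidance genes tested was called for sh003 (0% of all 14711 genes tested) or for sh004 (0.129% of all genes). Limma-voom called 0 in both. An unadjusted p under 0.05 was held by 5 of the 20 for sh003, beside 2811 of all 14711 genes. For sh004 it was held by 10 of the 20, beside 3268 of all genes. Between sh003 and sh004 spheres, 9 of 20 guidance genes were called (45.0%), where 39.9% of all genes were called, so the share is near that of all genes. EFNB2, EFNB3, EPHA2, UNC5B, UNC5C and ROBO2 were higher in sh003, and EFNA1, EFNA4 and ROBO3 were lower. The 9 calls rest on 2 libraries a side and 2 residual degrees of freedom. None was left with no filter on low values (0 genes called in all), with the RPKM as deposited (366 genes), or without sh004 sh2 (26 genes), and 5 were left without sh004 sh1 (EPHA2, ROBO2, UNC5C, ROBO3 and EFNB2), where 2702 of 14711 genes were called.

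EFNB2, with the smallest adjusted p of the 9, was at 41.4 and 47.5 RPKM in sh003 spheres against 9.40 and 8.43 RPKM in sh004 spheres, with 22.1 RPKM in the control sphere between them (log2 difference of sh003 and sh004 2.25 ± 0.19, limma adjusted p = 0.00775). EFNB3 was at 35.3 and 27.6 RPKM in sh003 against 18.4 and 17.5 RPKM in sh004 spheres and 30.8 RPKM in the control sphere (0.78 ± 0.20, limma adjusted p = 0.0269). ROBO2, a Slit receptor of many developing axons, was at 7.41 and 5.12 RPKM in sh003 against 0.825 and 0.756 RPKM in sh004 spheres and 2.07 RPKM in the control sphere (2.37 ± 0.27, limma adjusted p = 0.00867). ROBO3, which promotes midline crossing of axons, went the other way, at 3.47 and 2.90 RPKM in sh003 against 9.35 and 8.37 RPKM in sh004 spheres and 4.51 RPKM in the control sphere (-1.35 ± 0.21, limma adjusted p = 0.00917). In each of EFNB2, ROBO2 and ROBO3 the control sphere lay between the knockdown pairs, as it did in UNC5C, UNC5B and EFNA4.

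UNC5C was at 34.1 and 48.5 RPKM in sh003 against 13.1 and 15.7 RPKM in sh004 spheres and 29.8 RPKM in the control sphere (1.47 ± 0.24, limma adjusted p = 0.00937). UNC5B split the sh003 pair, at 14.1 and 72.1 RPKM, against 6.77 and 6.33 RPKM in sh004 spheres and 9.48 RPKM in the control sphere (2.21 ± 0.68, limma adjusted p = 0.0448, and 1.05 without sh003 sh2, limma adjusted p = 0.0458). EPHA2 was at 7.36 and 7.65 RPKM in sh003 against 4.08 and 2.12 RPKM in sh004 spheres and 2.31 RPKM in the control sphere (1.21 ± 0.31, limma adjusted p = 0.0261). EFNA1 was at 11.95 and 9.12 RPKM in sh003 against 24.2 and 16.7 RPKM in sh004 spheres and 6.36 RPKM in the control sphere (-0.91 ± 0.26, limma adjusted p = 0.034). EFNA4 was at 23.7 and 16.7 RPKM in sh003 against 38.2 and 43.5 RPKM in sh004 spheres and 24.1 RPKM in the control sphere (-1.02 ± 0.23, limma adjusted p = 0.0186). EFNA1 was thus above the control sphere in both knockdowns. DCC was at 16.0 RPKM in sh003 sh1, at 0.283 RPKM in sh003 sh2, at 0.818 and 2.24 RPKM in sh004 spheres and at 0.143 RPKM in the control sphere, and without sh003 sh2 it was the 1 guidance gene called for sh003 against control, where 120 of 14711 genes were called. That fit sets 1 library against 1, with the spread taken from the sh004 pair alone.

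Levels of the monolayer and sphere tables were computed in the same way but not tested against each other. SLIT3 was at 3.37 and 14.1 RPKM in sh003 spheres, 4.76 and 3.40 RPKM in sh004 spheres and 2.69 RPKM in the control sphere, all below the lowest monolayer library at 16.3 RPKM. EPHB3 was at 12.9 and 8.65 RPKM in sh003 spheres, 13.9 and 16.8 RPKM in sh004 spheres and 25.9 RPKM in the control sphere, all above the highest monolayer library at 7.46 RPKM. Outside the guidance genes, TRIO, ABL1 and MAP1B were also lower in every sphere than in every monolayer library, while USP33 and PAK1 overlapped. Lack of overlap therefore does not single out SLIT3. For neither direction was it counted over the guidance genes or over all genes. NTN4 was at 1.38 and 1.75 RPKM in sh003, 1.08 and 0.644 RPKM in sh004 and 0.594 RPKM in control spheres, and SLIT2 at 0.547 and 0.598 RPKM, 0.385 and 0.240 RPKM, and 0.481 RPKM. ROBO1 was at 24.3 and 11.1 RPKM in sh003, 13.7 and 13.5 RPKM in sh004 and 6.89 RPKM in control spheres. In the same order EPHB4 was at 19.1 and 17.7 RPKM, 14.1 and 17.6 RPKM, and 14.04 RPKM. EFNA2 was at 11.6 and 10.7 RPKM, 12.4 and 9.27 RPKM, and 12.6 RPKM. UNC5B exceeded UNC5C in 1 of the 5 spheres, sh003 sh2, where the ratio was 1.49, and the ratio was 0.32 to 0.52 in the other spheres.

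**Figure D4:**
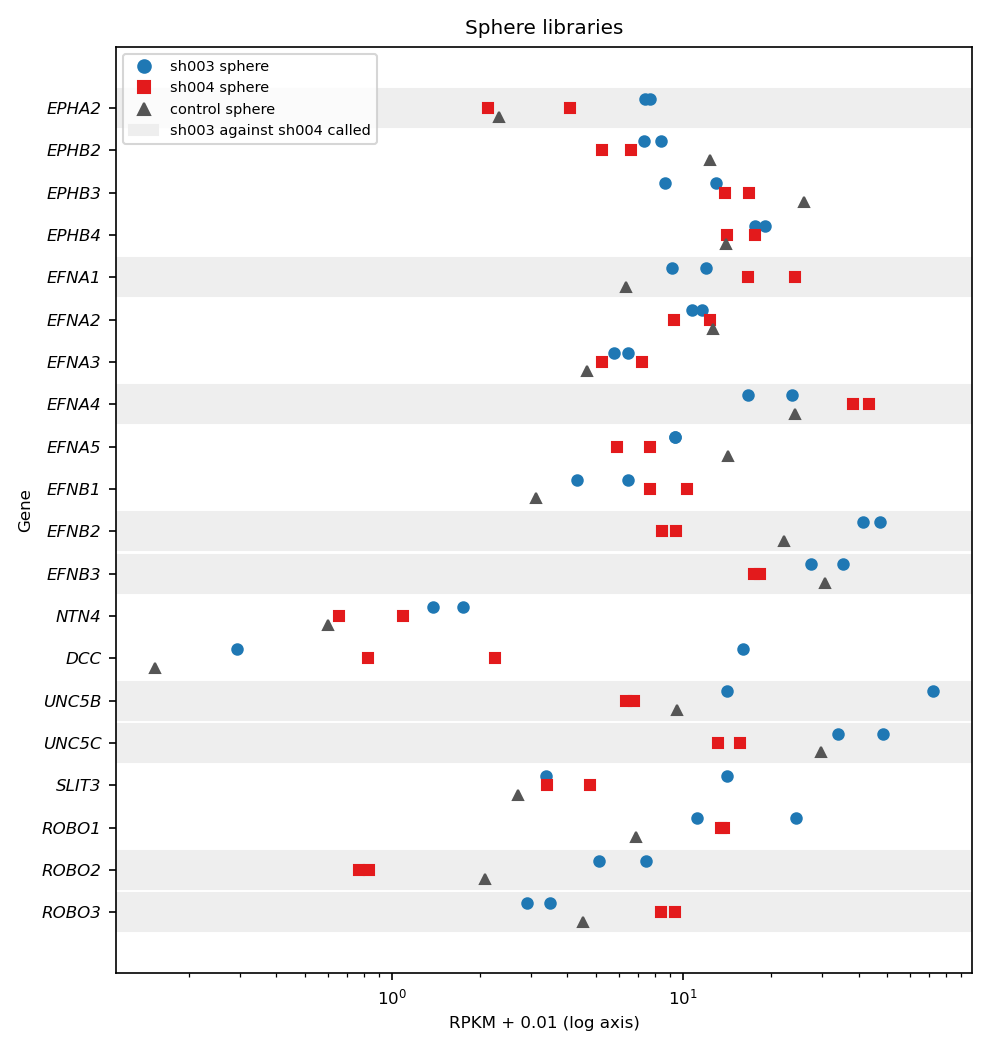
RPKM + 0.01 on a log axis for the 20 tested guidance genes in the sphere libraries, with sh003 as blue circles, sh004 as red squares and the control as a grey triangle, and grey bands on the 9 genes called between sh003 and sh004. The sh003 points lie right of the sh004 points for EFNB2, ROBO2 and UNC5C and left of them for ROBO3 and EFNA4, and the DCC points of sh003 lie far apart.

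KELLY cells, in which the SOX9 siRNA was used, expressed many of the same guidance genes as SH-SY5Y cells and differed in others. With 1 library a group there is no replicate check and no test, and a log2 ratio of RPKM + 0.5 of 1 or more in size was taken as the mark. None of the 19 guidance genes at 1 RPKM or above reached it, where 4.00% of 14340 genes did. With no pseudocount, a setting chosen after seeing the data, 1 of the 19 reached it, ROBO2, where 6.74% of the 14340 genes did. ROBO2 was at 3.49 RPKM with the SOX9 siRNA and 1.72 RPKM with the control siRNA, a ratio of 2.03 (log2 ratio 1.02, and 0.85 with the pseudocount). UNC5A was at 11.04 RPKM with the SOX9 siRNA and 20.8 RPKM with the control siRNA, a ratio of 0.531 (log2 ratio -0.91, and -0.88 with the pseudocount), and EPHB2 at 3.19 and 5.51 RPKM, a ratio of 0.578 (-0.79, and -0.71). Genes are named here after their values were seen. The 95% exact intervals of these ratios with no pseudocount, which cover counting error only, were 0.494 to 0.570 for UNC5A, 1.86 to 2.23 for ROBO2 and 0.517 to 0.647 for EPHB2. Such intervals excluded a ratio of 1 for 14 of the 19 genes, so they do not single out the genes named. UNC5B was at 70.8 against 71.6 RPKM, UNC5C at 41.9 against 41.9 RPKM and SLIT3 at 19.1 against 17.5 RPKM, and the median log2 ratio of RPKM + 0.5 over the 19 genes was 0.00 beside 0.05 over all 14340.

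Both lines expressed UNC5B, UNC5C, SLIT3, ROBO1, EPHB2, EPHB3 and EFNA5, among others, and they differed in some other receptors and ligands. EFNA5 was at 6.32 RPKM with the SOX9 siRNA and 6.08 RPKM with the control siRNA, beside 6.80 to 13.4 RPKM in SH-SY5Y monolayers. EPHA8 stood at 6.69 and 7.41 RPKM, EPHA6 at 4.20 and 3.05 RPKM, EPHA5 at 1.14 and 1.25 RPKM and EPHB1 at 1.05 and 0.993 RPKM in KELLY cells with the SOX9 and the control siRNA, and none of the 4 exceeded 0.996 RPKM in any SH-SY5Y library. UNC5A, at most 1.88 RPKM in SH-SY5Y cells, was well above that in both KELLY libraries. EFNB1 was the leading ephrin-B in KELLY cells, at 23.5 RPKM with the SOX9 siRNA and 17.4 RPKM with the control siRNA, beside EFNB2 at 10.9 and 8.32 RPKM and EFNB3 at 1.71 and 2.44 RPKM. In the same order EPHA2 was at 5.29 and 7.51 RPKM, EPHB3 at 3.89 and 3.06 RPKM, EPHB4 at 1.74 and 2.16 RPKM, EFNA1 at 2.02 and 2.98 RPKM, ROBO1 at 10.4 and 9.36 RPKM and ROBO3 at 0.878 and 0.905 RPKM. EFNA2 at 0.428 and 0.275 RPKM, EFNA4 at 0.066 and 0.528 RPKM, SLIT2 at 0.00429 and 0.0243 RPKM and NTN4 at 0.01 and 0.00942 RPKM were near 0. UNC5A overlaps HK3 on the opposite strand. The lines were grown and sequenced in separate experiments, so line and experiment cannot be told apart.

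Other genes of these pathways, from a list of 45 co-receptors, adaptors and effectors of which 36 were tested in monolayers, gave few calls. Without the block VAV2, a guanine nucleotide exchange factor that couples Eph receptors to endocytosis, was the only one, and it fell in sh003 cells to 12.3, 16.4 and 11.2 RPKM at day 7, against 21.0, 29.7 and 22.4 RPKM at day 0 (log2 change -0.85 ± 0.18, limma adjusted p = 0.0332). With the block VAV2 fell in all 3 backgrounds (-0.88 in sh003, -0.83 in sh004 and -0.79 in control cells, limma adjusted p = 0.00673, 0.0382 and 0.0227). The blocked calls were 3 up and 2 down of 36 in sh003, 0 and 1 in sh004, and 1 and 1 in control cells, where 14.3%, 2.11% and 7.68% of all genes were called, so these counts are few and near the background. USP33, a deubiquitinase that binds ROBO1, rose by 0.48 ± 0.10 in sh003 (limma adjusted p = 0.0165) and by 0.58 ± 0.11 in control cells (limma adjusted p = 0.0182). In sh003 cells PAK1, a kinase downstream of Rac, also rose by 0.66 ± 0.18 (limma adjusted p = 0.0389) and NTNG2, a membrane-anchored netrin-G, by 2.12 ± 0.59 (limma adjusted p = 0.0388), at 1.31, 16.9 and 6.32 RPKM at day 7, against 0.551, 2.06 and 0.573 RPKM at day 0, while NTNG1 fell by 1.09 ± 0.24 (limma adjusted p = 0.0169). In spheres 17 of the 32 tested were higher and 1, EVL, was lower in sh003 than in sh004, where 39.9% of all genes were called, with FLRT1, ABL1, DOCK1, APPL1, ADAM10 and TRIO having the largest differences (log2 differences of 2.22, 1.49, 1.48, 1.43, 1.41 and 1.38). None of the list was called in any comparison of a knockdown with control.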

How the data were processed

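The deposited values are RPKM in 3 tables, for monolayers, spheres and KELLY cells. Per the labels' protocols libraries were made with a stranded total RNA kit after ribosomal RNA removal. Per the submitters' processing notes the tools named are TopHat, featureCounts and Subread, and the build is hg19. Their versions, the annotation and the strand setting are not given in the sources used here. Whole reads were recovered from RPKM, gene length and the spacing of the values, and 100% of values came within 0.01 of a whole number. In the sphere table as deposited by the authors successive genes had been divided by 10 library totals taken in turn, so sphere RPKM was recomputed with each library's own total. Libraries were grouped by title.

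Tests took the genes that reached RPKM 1 in at least 2 libraries. The fit was limma 3.58.1 (R 4.3.3), with a trend of variance on level, to log2(RPKM + 0.5). Every group of a table entered one fit and one spread, and p-values were adjusted by Benjamini-Hochberg over all genes of the table. A lone control sphere is assumed to vary like the other groups. The fit without the block was tried on simulated data that held no batch differences, so that trial says nothing about batch effects or the blocked fit. The titles number batches. Control and sh003 libraries were centred on their groups, and these deviations correlated at 0.716 to 0.942 (median 0.818) across genes in the 16 pairs of the same batch. In 29 pairs of other batches they correlated at -0.920 to 0.744 (median -0.792). Deviations within a group of 2 or 3 libraries cancel, so the negative values are in part arithmetic. Pairs of batches 2 and 3 correlated at 0.536 to 0.744 and pairs of batch 1 with another batch negatively, so batch 1 stood apart. A fit with batch as a block was run for each monolayer comparison, and its values are printed beside the others. All sh004 libraries are of batch 2. Genes reported with values in every library are those called in any comparison and those averaging 10 RPKM or more in monolayers. The genes, lists and alternatives were chosen with earlier results of these data known. KELLY ratios were also taken with no pseudocount, chosen after seeing the data. Alternatives were pseudocounts of 1 and 0.1, no filter, median-ratio scaling, limma-voom on the recovered reads, the block, and leaving out libraries. Intervals of read ratios cover counting error only. Genes without overlap between groups were counted among the guidance genes only, so no share over all genes is given. Of 63677 identifiers 52181 matched a symbol. Gene coordinates are not given, since the genome given is of a later build.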

Additional observations from a re-analysis of the deposited data

How the results depend on the processing

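Of 554 results for single called genes under an alternative, 413 kept their direction and their call, 141 kept the direction and lost the call, and 0 changed direction. These genes were taken because they were called. Without the block, leaving out a library of a group not compared cannot move the log2 change, only its standard error. The kept directions and calls were thus in part fixed in advance. The batch block raised the number of guidance genes called at day 7 to 5 in sh003, 4 in sh004 and 5 in control cells, against 2 in each, and gave 1 for sh003 against control at day 0, 1 for sh004 against control at day 7 and 3 for sh003 against sh004 at day 7, against 0 in each. Median-ratio scaling left 1 (NTN4) in control and 1 in sh004 cells, no filter left 1 in sh004 cells, and leaving out both libraries with contradicting labels left 1 in control and 1 in sh004 cells. Without 1 library in turn, the unblocked counts of guidance genes were 1 to 3 in control cells (36 to 269 of all genes called), 0 to 3 in sh004 cells (15 to 89), 0 to 1 for sh003 against sh004 at day 7 (0 to 339), 0 to 1 for sh003 against control spheres (0 to 120) and 0 to 9 for sh003 against sh004 spheres (26 to 5971). With the block they were 3 to 6 in control (116 to 2695), 3 to 6 in sh003 (343 to 4014) and 3 to 6 in sh004 cells (81 to 1474), 0 to 1 for sh003 against control at day 0 (1 to 262) and at day 7 (0 to 588), 0 to 3 for sh004 against control at day 7 (2 to 192) and 0 to 7 for sh003 against sh004 at day 7 (7 to 2268). With the block and without both libraries with contradicting labels, an alternative chosen after seeing the data, as was median-ratio scaling with the block, 0 were called for sh003 against control at day 0 and 0 for sh004 against control at day 7. For sh003 against sh004 spheres, no filter gave 0 and the RPKM as deposited gave 0. The cause of these changes was not tested. Median-ratio scaling moved the median of all genes by -0.11 (log2) at day 7 against day 0 in control cells, by 0.11 for sh004 against control at day 7 and by 0.11 for sh004 against control spheres. In KELLY cells 0 of the 19 guidance genes reached the ratio with pseudocounts of 0.5, 1 and 0.1, and 1, ROBO2, with none.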
